A study of Mus musculus with 59 samples.

Results

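Mutant glia were set against wild-type glia that had the same kind of partner, wild-type neurons, in mouse sandwich co-cultures, where each culture pairs glia with neurons and 1 of both cell types is sequenced. The comparison used the 12 of 59 libraries of the series in which the RNA of glia beside wild-type neurons was sequenced. These were 6 libraries of glia with the SOD1_G93A mutation and 6 libraries of wild-type glia, 2 of each at days 3, 7 and 14. SOD1_G93A is a mutant form of human superoxide dismutase 1 that causes a motor neuron disease in mice and is used as a model of amyotrophic lateral sclerosis (ALS). Both groups were grown beside wild-type neurons, so the neuron partner's genotype did not differ between them. The strain, the age and number of the animals, the way the glia were purified and whether replicates came from separate cultures are not given in the sources used here, so p-values measure the spread between these libraries, which may be technical. For the model the 11 libraries of glia beside mutant neurons were added, which gave 23 glial libraries with 1 estimate of the spread. These added libraries are not a separate repeat: libraries of the same glia genotype, day and number beside the other neuron had a spread of 1.67 to 10.1 times counting noise (median 2.97), against 9.83 to 23.7 times for replicates of a group (median 14.9). Mutant against wild-type glia of the same day and number had 2.31 to 25.7 times (median 6.74), so part of this likeness went with day and number. The model takes all 23 as independent, so its p-values may be too small, and with the 12 libraries alone the 36 genes called in the mean over days became 0 and the 133 called at day 7 became 6.

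Glia of the spinal cord and brain include astrocytes, which clear glutamate and feed neurons, microglia, the resident immune cells, and the oligodendrocyte lineage, which makes myelin. In SOD1 mutant mice, glia are known to shape how fast the disease advances, and mutant astrocytes are known to harm motor neurons in culture. Interferons are secreted alarm proteins that switch on a shared set of antiviral genes, and Wnt proteins are secreted signals that act through Frizzled receptors.

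Levels are given in RPKM (reads per kilobase of gene and per M reads of the library), divided by 1 scaling factor per library. Differences are mutant minus wild-type glia of log2(RPKM + 1), which understates the change of genes with low values, and a gene was called where its p from limma, adjusted by Benjamini-Hochberg over the 14279 genes tested, was under 0.05. Reads on genes were 3.13 to 21.2 M in the mutant libraries and 3.86 to 21.0 M in the wild-type libraries, with the lowest in the first replicate of day 14 in both groups. Scaling factors were 0.866 to 0.950 in all 12 libraries except the first replicate of day 3, where they were 1.82 in mutant and 1.55 in wild-type glia. By design each mutant library was set against the wild-type library with its day and replicate number, which gave 6 pairs. Libraries of the same day and number deviated together.

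On each of the 3 days some libraries stood apart. At day 3 these were the first replicates, whose deposited values summed to 705556 in mutant and 678640 in wild-type glia. In the second replicates of that day they summed to 314756 in mutant and 315219 in wild-type glia. At day 7 the Y-linked genes were near 0 in both wild-type libraries. Eif2s3y, a subunit of a translation initiation factor encoded on the Y chromosome (mm9 chrY:346986-365291), had 46.1 and 31.5 RPKM in mutant glia and 0.17 and 0.00 RPKM in wild-type glia at day 7, which were 1533 and 967 reads against 5 and 0 reads. Kdm5d, a Y-linked histone demethylase, had 3.88 and 4.90 RPKM in mutant glia and 0.00 and 0.02 RPKM in wild-type glia at that day. At day 3 Eif2s3y had 26.3 and 12.5 RPKM in mutant glia and 12.4 and 23.9 RPKM in wild-type glia, so the groups overlapped there. At day 14 its values were 10.8 and 43.4 RPKM in mutant glia and 4.16 and 32.9 RPKM in wild-type glia. Nnt, the mitochondrial transhydrogenase gene, named after its values were seen, had 5.11 and 7.02 RPKM in mutant glia and 3.25 and 4.14 RPKM in wild-type glia at day 7 (difference 0.58, adjusted p = 0.034). That call was made in 12 of 21 alternative settings. The same absence of Y-linked reads was seen in the wild-type glia beside mutant neurons at day 7. Sex of the animals and mutation cannot be told apart at day 7, and the part of sex in the other day 7 differences was not tested.

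**Figure D1:**
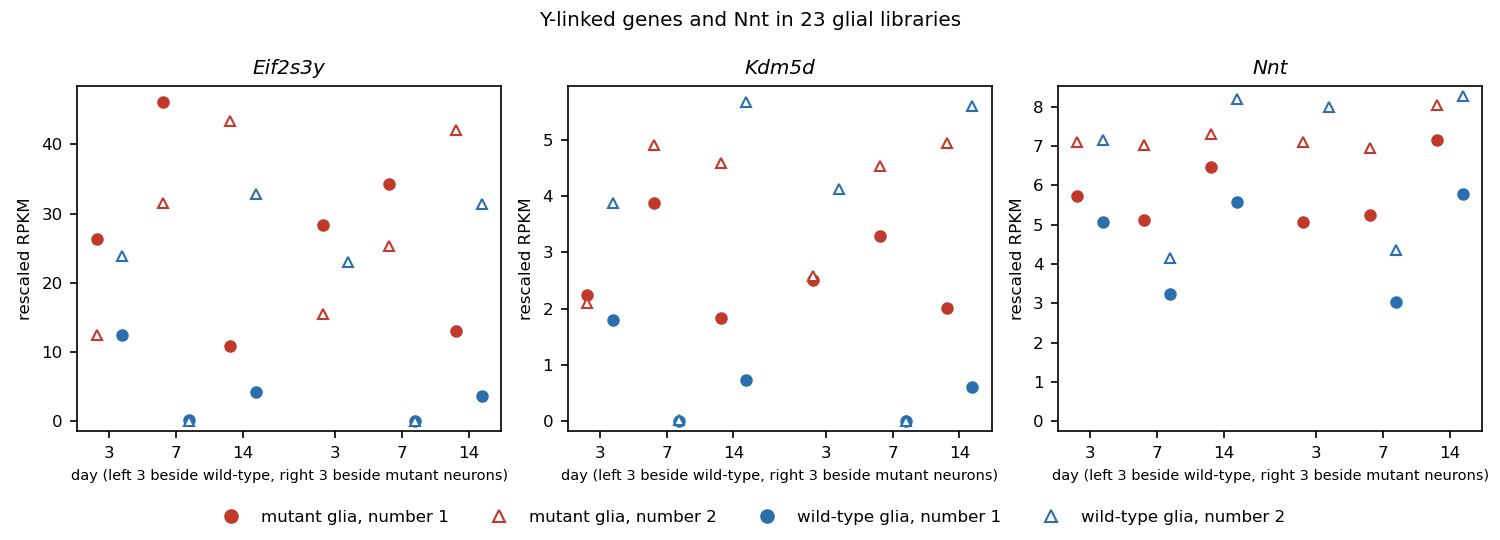
Rescaled RPKM of Eif2s3y, Kdm5d and Nnt in 23 glial libraries, with mutant glia in red, wild-type glia in blue, filled circles for replicate 1 and open triangles for replicate 2, by day and neuron partner. Wild-type glia lie near 0 for both Y-linked genes at day 7 beside either neuron, while mutant glia do not.

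The second replicate pair of day 14 stood apart in markers of other glia. Sox10, a transcription factor of the oligodendrocyte lineage, had 0.5 and 0.2 RPKM in mutant glia and 0.7 and 29.9 RPKM in wild-type glia at day 14. Cx3cr1, the fractalkine receptor of microglia, had 46.1 and 4.0 RPKM in mutant glia and 51.2 and 24.5 RPKM in wild-type glia. Col1a1, a fibrillar collagen of fibroblasts, had 272 and 234 RPKM in mutant glia and 426 and 32.5 RPKM in wild-type glia. For Sox10 and Col1a1 the second wild-type library was far from the 3 others of day 14, and for Cx3cr1 both libraries of that pair were below both of the first pair.

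Astrocyte markers were high in both groups. Their summed level was 2433 to 2485 RPKM in mutant and 2212 to 2415 RPKM in wild-type glia at day 3, 2263 to 2325 RPKM in mutant and 1868 to 2066 RPKM in wild-type glia at day 7, and 1385 to 2297 RPKM in mutant and 1940 to 2435 RPKM in wild-type glia at day 14. None of the 14 markers was at 0, and 0 of 14 were called in the mean over days, with a median difference of -0.04. The cultures also held microglial RNA, with a summed level of 17 markers of 1823 to 4216 RPKM in mutant and 2105 to 4995 RPKM in wild-type glia over the 3 days. Neuronal markers were low, at 88.8 to 128.7 RPKM in mutant and 67.4 to 178.8 RPKM in wild-type glia summed over 12 genes, and Rbfox3, the neuronal nuclear antigen, was at 0.5 RPKM or less in all 12 libraries. In bulk RNA, fewer cells of a type and less RNA per cell cannot be told apart.

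Mouse Sod1 was higher in the mutant library of all 6 pairs but was not called. It had 1220 and 234 RPKM in mutant and 1216 and 183 RPKM in wild-type glia at day 3, 472 and 219 RPKM in mutant and 378 and 181 RPKM in wild-type glia at day 7, and 269 and 330 RPKM in mutant and 240 and 193 RPKM in wild-type glia at day 14. Its mean difference was 0.32 (SE 0.12, adjusted p = 0.477). In both groups the first Sod1 value of day 3 was far above the second. The mutation is carried by a human transgene, so mouse Sod1 checks the labels only in part.

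Averaged over the 3 days, 36 of 14279 genes were called (0.252%), 8 higher (0.056%) and 28 lower (0.196%) in mutant glia, and 7.75% had an unadjusted p under 0.05. The genes that fell included Aoc3, the secreted signal gene Wnt4 and Enpp2, interferon-induced genes and immune genes, and those that rose included Nrg1, Syndig1, Slitrk5 and 3 Y-linked genes. Of all tested genes, 1.6% were lower in the mutant library of all 6 pairs and 1.13% higher in all 6 pairs. The same sign in all 6 pairs was a condition for naming genes of the mean by rule, so it is no added support for them. Of all tested genes, 6 (0.042%) had all 6 mutant libraries below all 6 wild-type libraries, and 2 (0.014%) had all 6 above. With the 12 libraries alone in the model, where limma called 0 genes, 753 had an unadjusted p under 0.05, and without the day 7 libraries only Aoc3 passed (1 gene). Leaving out 1 library at a time, the count was lowest without the second mutant library of day 7 (5 genes) and highest without the second wild-type library of day 3 (136 genes), and it was 7 without the first mutant library of day 3, 13 without the first mutant library of day 7, and 9 and 6 without the first and the second wild-type library of day 7.

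**Figure D2:**
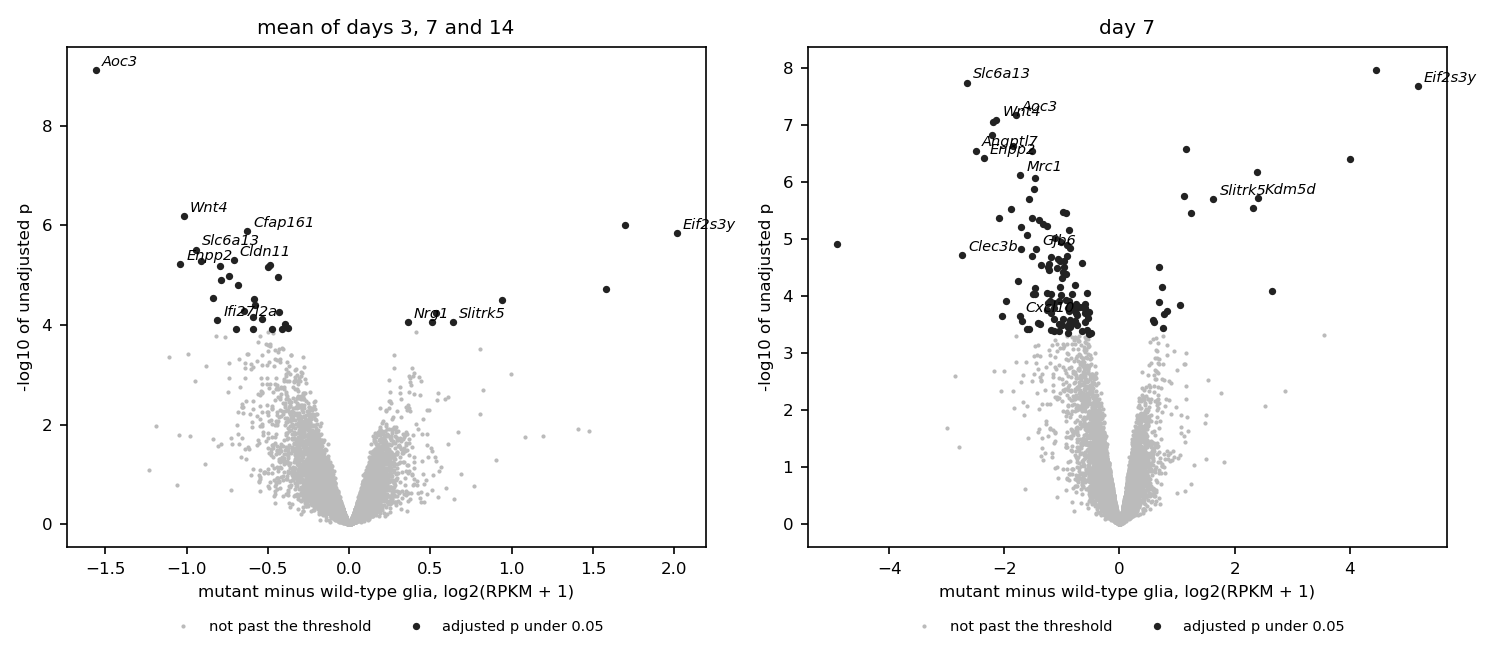
Difference (mutant minus wild-type glia, log2 of RPKM + 1) against -log10 of the unadjusted p for 14279 genes, as the mean over days at left and at day 7 at right, with genes past the adjusted threshold in black. Aoc3 has the lowest p of the mean, and Eif2s3y and the lower genes Slc6a13 and Wnt4 are among the lowest p at day 7.

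Aoc3, which encodes an amine oxidase of blood vessel and fat cell surfaces known as vascular adhesion protein 1 (mm9 chr11:101191919-101203253, plus strand), was the clearest case. It had 1.20 and 0.59 RPKM in mutant glia and 2.50 and 2.97 RPKM in wild-type glia at day 3. At day 7 it had 0.06 and 0.09 RPKM in mutant glia and 2.86 and 2.63 RPKM in wild-type glia. At day 14 it had 0.12 and 0.11 RPKM in mutant glia and 2.99 and 3.22 RPKM in wild-type glia. The 6 mutant values all lay below the 6 wild-type values, and mutant values were lower at days 7 and 14 than at day 3. Its reads numbered 2 to 54 in the mutant libraries and 60 to 356 in the wild-type libraries. The mean difference was -1.56 (SE 0.09, adjusted p = 1.08e-05), and the daily differences were -0.99 at day 3 (adjusted p = 0.313), -1.80 at day 7 (adjusted p = 2e-04) and -1.88 at day 14 (adjusted p = 3e-04). With the 12 libraries alone its adjusted p was 0.064, and without day 7 its difference was -1.48 with an adjusted p of 0.038.

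**Figure D3:**
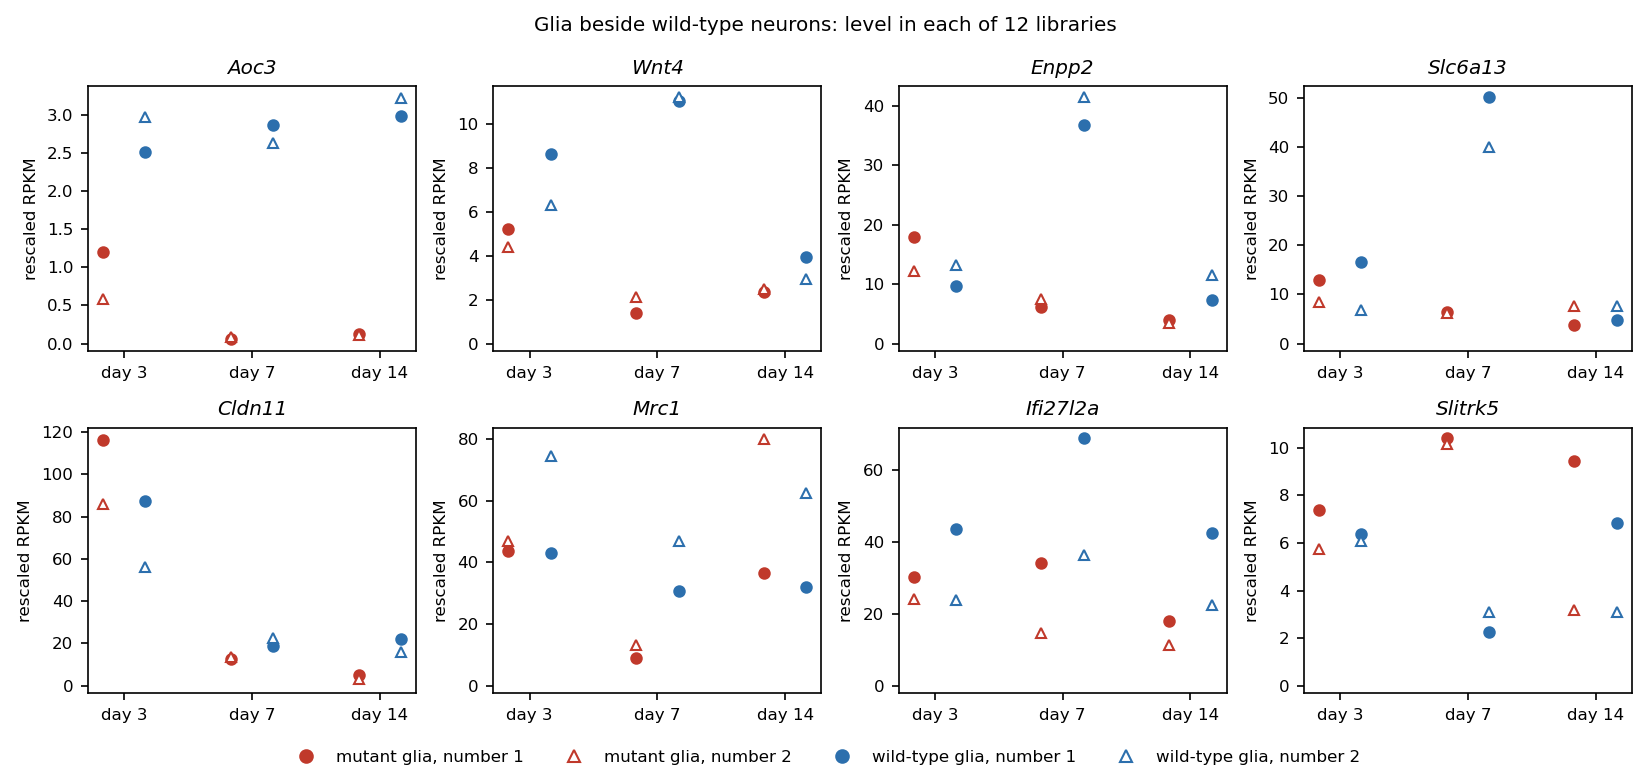
Rescaled RPKM of 8 genes in each of the 12 libraries, mutant glia (red) left of wild-type glia (blue) at each day, with filled circles for replicate 1 and open triangles for replicate 2. Aoc3 separates all 6 mutant from all 6 wild-type libraries. At day 7 Wnt4, Enpp2, Slc6a13, Cldn11, Mrc1, Ifi27l2a and Slitrk5 also separate the groups. Of all tested genes, 15.8% do so at day 7 with mutant glia lower and 15.1% with mutant glia higher.

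The differences of Wnt4, Enpp2 and Slc6a13 were larger at day 7 than at days 3 and 14. Wnt4, a Wnt ligand, had 5.24 and 4.38 RPKM in mutant and 8.61 and 6.32 RPKM in wild-type glia at day 3, 1.40 and 2.14 RPKM in mutant and 11.04 and 11.2 RPKM in wild-type glia at day 7, and 2.33 and 2.50 RPKM in mutant and 3.96 and 2.95 RPKM in wild-type glia at day 14. It was lower in all 6 pairs and fell most at day 7 (-2.14, adjusted p = 2e-04), with a mean difference of -1.02 (SE 0.11, adjusted p = 0.0041). Without the day 7 libraries the Wnt4 difference was -0.46. Enpp2, which encodes autotaxin, the enzyme that makes lysophosphatidic acid, had 6.20 and 7.45 RPKM in mutant and 36.8 and 41.4 RPKM in wild-type glia at day 7, but 17.9 and 12.2 RPKM in mutant and 9.67 and 13.3 RPKM in wild-type glia at day 3, where the groups overlapped. Slc6a13, a GABA transporter of the meninges, followed a like course, with 6.35 and 6.25 RPKM in mutant and 50.05 and 40.01 RPKM in wild-type glia at day 7. Its day 7 difference was -2.65 (SE 0.20, adjusted p = 1e-04), and those at day 3 and day 14 were -0.04 and -0.14.

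Slc6a13 was the 1 called member of 10 fibroblast and meningeal markers at day 7, when 0.791% of all tested genes were called lower. The median difference of these markers was 0.01 at day 3, -0.78 at day 7 and 0.41 at day 14. Over all genes the medians were 0.0017, 0.0029 and 0.0084. At day 14 the pairs went opposite ways, with sums of 872.3 RPKM in mutant and 1389.2 RPKM in wild-type glia in the first and 1435.1 RPKM in mutant and 408.1 RPKM in wild-type glia in the second. Without the second mutant library of day 14 the day 14 median was -0.24, and without the second wild-type library it was -0.12. The markers' summed level at day 7 was 600 to 732 RPKM in mutant and 1452 to 1548 RPKM in wild-type glia, with no overlap, and their part in the day 7 differences was not tested. Aldh1a2, a retinoic acid synthesis enzyme, had 21.0 and 21.7 RPKM in mutant and 103 and 97.7 RPKM in wild-type glia at day 7, and Igf2, an insulin-like growth factor, had 277 and 164 RPKM in mutant and 807 and 570 RPKM in wild-type glia. Neither was called (adjusted p = 0.11 and 0.27).

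Ccl9, Milr1 and Ctsc were also called lower. Ccl9, a chemokine, fell by 0.58, Milr1, an inhibitory immune receptor, fell by 0.53, and Ctsc, a lysosomal protease, fell by 0.41 on the log2 scale, each lower in all 6 pairs. Of 22 alternative settings, 6 gave the call for Ccl9, 3 for Milr1 and 3 for Ctsc. Mrc1, the mannose receptor of macrophages (named after its values were seen), had 8.84 and 13.1 RPKM in mutant and 30.8 and 46.8 RPKM in wild-type glia at day 7, while the groups overlapped at days 3 and 14. Of 17 microglial markers 0 were called in the mean and 17 were negative, with a median of -0.25 against 9e-04 over all genes.

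Of the 20 interferon response genes, 2 were called lower in the mean over days (Ifi27l2a and Rtp4), against 0.196% of all genes, 20 of 20 had a negative difference, and the median was -0.39. The medians were -0.13 at day 3, -0.74 at day 7 and -0.3 at day 14, with 0 called on any single day. Ifi27l2a, an interferon-induced mitochondrial protein gene, had 34.2 and 14.8 RPKM in mutant and 68.9 and 36.3 RPKM in wild-type glia at day 7, and 17.9 and 11.2 RPKM in mutant and 42.4 and 22.6 RPKM in wild-type glia at day 14, with a mean difference of -0.81 (SE 0.14, adjusted p = 0.041). Rtp4, an interferon-induced chaperone gene, had 26.5 and 7.49 RPKM in mutant and 35.4 and 23.9 RPKM in wild-type glia at day 7, with a mean difference of -0.70 (SE 0.12, adjusted p = 0.048). The Rtp4 call was made in 3 of 22 alternative settings and was lost, among others, with quantile normalization, with values as deposited and with the 12 libraries alone, and over all 22 settings 0 to 2 genes of the list were called. The Ifi27l2a call was kept with quantile normalization, with 0.1 in place of 1 added before the log, and with voom on the recovered reads. It was lost in most of the 22 settings, among them no replicate block, values as deposited and the 12 libraries alone. Ifi27l2a did not overlap between the groups at days 7 and 14, while Rtp4 overlapped at both. Of all tested genes, both mutant libraries lay below both wild-type libraries for 15.8% at day 7 and for 8.21% at day 14, and above both for 15.1% at day 7 and for 8.08% at day 14. The summed level of the list was 234 to 481 RPKM in mutant and 496 to 691 RPKM in wild-type glia at day 7, and the microglial sum in the same libraries was 2133 to 3749 RPKM in mutant and 3042 to 4995 RPKM in wild-type glia. The part of microglial content in the interferon result was not tested.

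Slfn8, a Schlafen family gene (mm9 chr11:82815660-82834313, minus strand), was lower in all 6 pairs, with 1.92 and 1.41 RPKM in mutant and 3.58 and 3.17 RPKM in wild-type glia at day 7 and a mean difference of -0.59 (SE 0.09, adjusted p = 0.0225). Its call was made in 5 of 22 alternative settings. Its family holds near-identical copies, so its reads may be shared. Cxcl10, an interferon-induced chemokine, had 4.84 and 3.07 RPKM in mutant and 13.2 and 17.6 RPKM in wild-type glia at day 7 (-1.74, SE 0.33, adjusted p = 0.0312), and was not called in the mean (-0.88, adjusted p = 0.119). The RefSeq promoters of these genes (GRCm38.p6, 250 bases before to 50 after the start) are shown because each holds the core of an interferon response element, searched as TTTC, any 2 bases and TTTC on both strands and shown in capitals.

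Slfn8: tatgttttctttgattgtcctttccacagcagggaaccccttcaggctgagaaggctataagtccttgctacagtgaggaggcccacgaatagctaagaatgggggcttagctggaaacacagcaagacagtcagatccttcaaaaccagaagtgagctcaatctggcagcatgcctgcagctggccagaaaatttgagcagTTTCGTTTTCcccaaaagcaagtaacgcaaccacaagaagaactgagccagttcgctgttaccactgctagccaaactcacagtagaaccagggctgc
Cxcl10: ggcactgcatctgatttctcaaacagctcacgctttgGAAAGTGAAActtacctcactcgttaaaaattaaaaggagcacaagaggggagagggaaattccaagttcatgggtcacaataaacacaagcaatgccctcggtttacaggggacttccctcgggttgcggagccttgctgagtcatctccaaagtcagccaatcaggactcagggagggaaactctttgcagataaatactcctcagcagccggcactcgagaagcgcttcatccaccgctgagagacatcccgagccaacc

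The first is chr11:83020761-83021060 and the second chr5:92348840-92349139, both on the minus strand and written 5′ to 3′ along the gene. Of all 32851 RefSeq promoters of this length, 3.44% held the motif, and of 14 interferon list genes with a RefSeq promoter, 7 held it. A match is a run of letters and was not tested as a binding site.

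Fut10, Sspn, Inpp5j and Minar1 were lower in all 6 pairs and were called in the mean. Fut10, of the fucosyltransferase family, had 4.45 and 4.31 RPKM in mutant and 6.78 and 6.56 RPKM in wild-type glia at day 3, 4.44 and 4.39 RPKM in mutant and 7.39 and 7.01 RPKM in wild-type glia at day 7, and 4.90 and 5.45 RPKM in mutant and 6.72 and 7.05 RPKM in wild-type glia at day 14. All 6 mutant values of Fut10 lay below all 6 wild-type values, with a mean difference of -0.49 (SE 0.06, adjusted p = 0.008). Sspn, sarcospan of the dystrophin complex, had 6.25 and 7.71 RPKM in mutant and 13.1 and 15.1 RPKM in wild-type glia at day 7, with a mean difference of -0.50 (SE 0.06, adjusted p = 0.008). Inpp5j, an inositol phosphatase gene, and Minar1 fell by 0.43 and 0.39 on the log2 scale (adjusted p = 0.034 and 0.043). Of 22 alternative settings, 13 gave the call for Fut10, 12 for Sspn, 5 for Inpp5j and 2 for Minar1. Neither Inpp5j nor Minar1 had a called change between day 3 and day 14.

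Genes that rose were fewer. Nrg1, a ligand of ErbB receptors, had 5.51 and 6.73 RPKM in mutant and 4.14 and 6.06 RPKM in wild-type glia at day 3, 9.51 and 11.7 RPKM in mutant and 5.57 and 6.78 RPKM in wild-type glia at day 7, and 9.24 and 7.80 RPKM in mutant and 7.84 and 7.32 RPKM in wild-type glia at day 14. It was higher in all 6 pairs, with a mean difference of 0.36 (SE 0.06, adjusted p = 0.0413). Of 18 growth and neurotrophic factors it was the 1 called in the mean, against 0.252% of all tested genes. Syndig1, which encodes a partner of glutamate receptors, was higher in all 6 pairs by a mean of 0.54 (SE 0.09, adjusted p = 0.0344). Of 22 alternative settings, 4 gave the call for Nrg1, whose mean difference was 0.19 to 0.40 among them, and 5 gave the call for Syndig1. Slitrk5, a synaptic adhesion protein gene, had 10.4 and 10.2 RPKM in mutant and 2.25 and 3.10 RPKM in wild-type glia at day 7, and overlapped at day 14. Scg5, a neuroendocrine chaperone gene, had 96.9 and 83.2 RPKM in mutant and 40.8 and 34.4 RPKM in wild-type glia at day 7. Both were called at day 7, at 1.63 (adjusted p = 0.0014) and 1.24 (adjusted p = 0.0019). Each of these calls was made in 17 of 21 alternative settings, and the Slitrk5 call in the mean over days in 4 of 22.

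At day 3, 0 genes were called (0%), with 781 at an unadjusted p under 0.05 (5.47%) and 0 with voom on the recovered reads. Without the second wild-type library of day 3, which leaves 1 wild-type library whose spread is taken from the other groups, 264 were called. At day 7, 133 genes were called (0.931%), 20 higher (0.14%) and 113 lower (0.791%), and 9.45% had an unadjusted p under 0.05. With the 12 libraries alone 6 were called, and leaving out a day 7 library gave 34 and 26 without the first and the second mutant library, and 26 and 37 without the first and the second wild-type library. Besides those above, Clec3b, a plasminogen-binding lectin gene, had 2.01 and 1.97 RPKM in mutant and 23.6 and 15.0 RPKM in wild-type glia (-2.73, SE 0.40, adjusted p = 0.0064). Angptl7, an angiopoietin-like gene, had 2.11 and 1.76 RPKM in mutant and 18.6 and 12.9 RPKM in wild-type glia at day 7, and 8.24 and 2.64 RPKM in mutant and 3.92 and 1.74 RPKM in wild-type glia at day 3. Rec8, a cohesin subunit of meiosis, had 0.10 and 0.17 RPKM in mutant and 3.82 and 4.81 RPKM in wild-type glia at day 7, against 0.15 and 0.30 RPKM in mutant and 0.23 and 0.15 RPKM in wild-type glia at day 3. Angptl7 and Rec8 separated the groups at day 7 and overlapped at day 3, and both calls were made in 20 of 21 alternative settings. Further called genes of day 7 were named after their values were seen. Fzd10, a Frizzled receptor for Wnt proteins, had 2.33 and 1.75 RPKM in mutant and 15.8 and 8.92 RPKM in wild-type glia. Dpp4, a dipeptidyl peptidase of fibroblasts and immune cells, had 0.13 and 0.17 RPKM in mutant and 2.81 and 1.76 RPKM in wild-type glia. Stra6, a receptor for retinol uptake, had 10.4 and 7.05 RPKM in mutant and 32.7 and 27.7 RPKM in wild-type glia. For Fzd10, Dpp4 and Stra6 the groups did not overlap at day 7, as for 15.8% of all genes in that direction. Among interferon-induced genes outside the fixed list, Oas2 had 0.89 and 0.25 RPKM in mutant and 2.68 and 2.65 RPKM in wild-type glia, and Slfn2 had 16.3 and 10.9 RPKM in mutant and 25.9 and 23.5 RPKM in wild-type glia. Of the higher genes, Alox5, the lipoxygenase that starts leukotriene synthesis, had 4.13 and 3.14 RPKM in mutant and 1.26 and 0.88 RPKM in wild-type glia, and Fabp5, a fatty acid binding protein gene, had 15.6 and 15.6 RPKM in mutant and 7.43 and 6.58 RPKM in wild-type glia. Among the fixed lists the day 7 calls were Gjb6 (connexin 30 of astrocytes, -1.45), Cxcl10, Lama1 (a laminin chain, -1.51), Bmp2 (a BMP ligand, -0.76), Ang (angiogenin, in whose human gene ALS variants are known, -1.04), Slc7a11 (a cystine transporter, -1.42), Sod3 (extracellular superoxide dismutase, -1.21), Slc6a13, Nrg1 and 5 Y-linked entries. Of 21 alternative settings, 9 gave the day 7 call for Stra6 and Slc7a11, 10 for Cxcl10 and Slfn2, and 12 for Bmp2. The count was 13 for Fabp5 and Nrg1, 14 for Ang and Lama1, and 20 for Slc6a13. It was 15 to 18 for Clec3b, Sod3, Gjb6, Oas2, Fzd10, Dpp4 and Alox5.

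**Figure D4:**
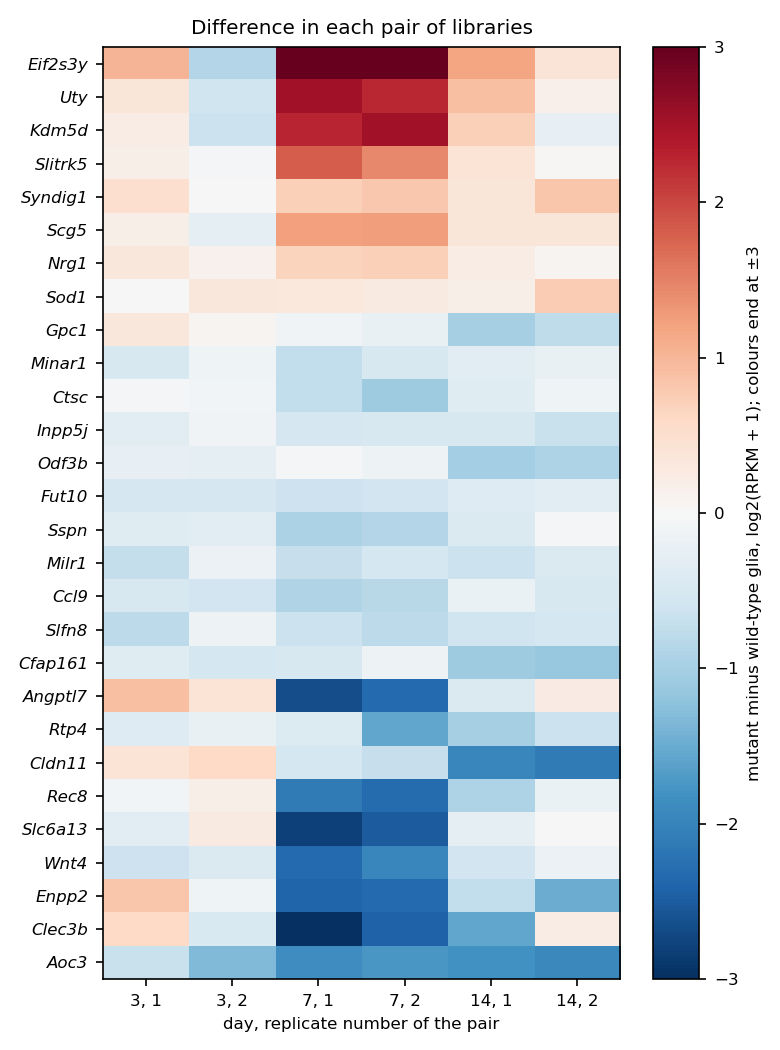
Difference (mutant minus wild-type glia, log2 of RPKM + 1) in each of the 6 pairs of libraries for genes named by rule, with columns by day and replicate number and colours ending at ±3. Eif2s3y is most positive at day 7, Aoc3 is negative in all 6 pairs, and Cldn11 turns from positive at day 3 to negative at day 14.

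At day 14, 5 genes were called (0.035%), all lower, and 8.35% had an unadjusted p under 0.05. Cldn11, the claudin of oligodendrocyte myelin and barrier layers (mm9 chr3:31048868-31063247, plus strand), had 116 and 86.0 RPKM in mutant and 87.4 and 56.1 RPKM in wild-type glia at day 3, 12.8 and 13.7 RPKM in mutant and 19.0 and 22.6 RPKM in wild-type glia at day 7, and 4.93 and 2.96 RPKM in mutant and 22.0 and 16.1 RPKM in wild-type glia at day 14. Mutant glia were higher in both pairs at day 3 and lower in all 4 later ones. The day 14 difference was -2.04 (SE 0.16, adjusted p = 3e-04), and it differed from day 3 by -2.54 (adjusted p = 0.0014), the 1 gene called for that change (0.007%, with 7.51% at an unadjusted p under 0.05). Without the second wild-type library of day 3 that count was 116, and leaving out any other of the 12 libraries gave 1 to 3. The Cldn11 call for that change was made in 18 of 21 alternative settings, and with the 12 libraries alone its adjusted p was 0.068. Cfap161 and Odf3b, genes of cilia and sperm tails, were lower at day 14 (-1.11 and -0.97, adjusted p = 0.0037 for both) and in all 6 pairs, with values of 4.68 and 0.81 RPKM in mutant and 10.96 and 3.00 RPKM in wild-type glia for Cfap161. Of 7 ependymal markers, the multiciliated cells of the ventricles, 7 were negative and 0 called at day 14. Gpc1, a heparan sulfate proteoglycan, had 20.5 and 19.3 RPKM in mutant and 41.6 and 33.4 RPKM in wild-type glia (-0.88, SE 0.12, adjusted p = 0.0399), a call made in 5 of 21 alternative settings.

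None of the 11 tested markers of the oligodendrocyte lineage was called on any day or for the difference between day 14 and day 3. All 11 tested were positive at day 3 (median 0.38), 10 at day 7 (0.72), and all 11 negative at day 14 (-1.07). At day 14 their summed level was 200.3 RPKM in mutant and 172.3 RPKM in wild-type glia in the first pair, and 75.68 RPKM in mutant and 308.5 RPKM in wild-type glia in the second, so the sums of the pairs went opposite ways. Without the second mutant library of day 14 the median was -0.48. Mbp, myelin basic protein, had 23.3 and 24.6 RPKM in mutant and 6.3 and 9.9 RPKM in wild-type glia at day 7, and 3.7 and 4.1 RPKM in mutant and 4.4 and 33.0 RPKM in wild-type glia at day 14. For Mbp the second wild-type library of day 14 was far above the 3 others of that day.

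**Figure D5:**
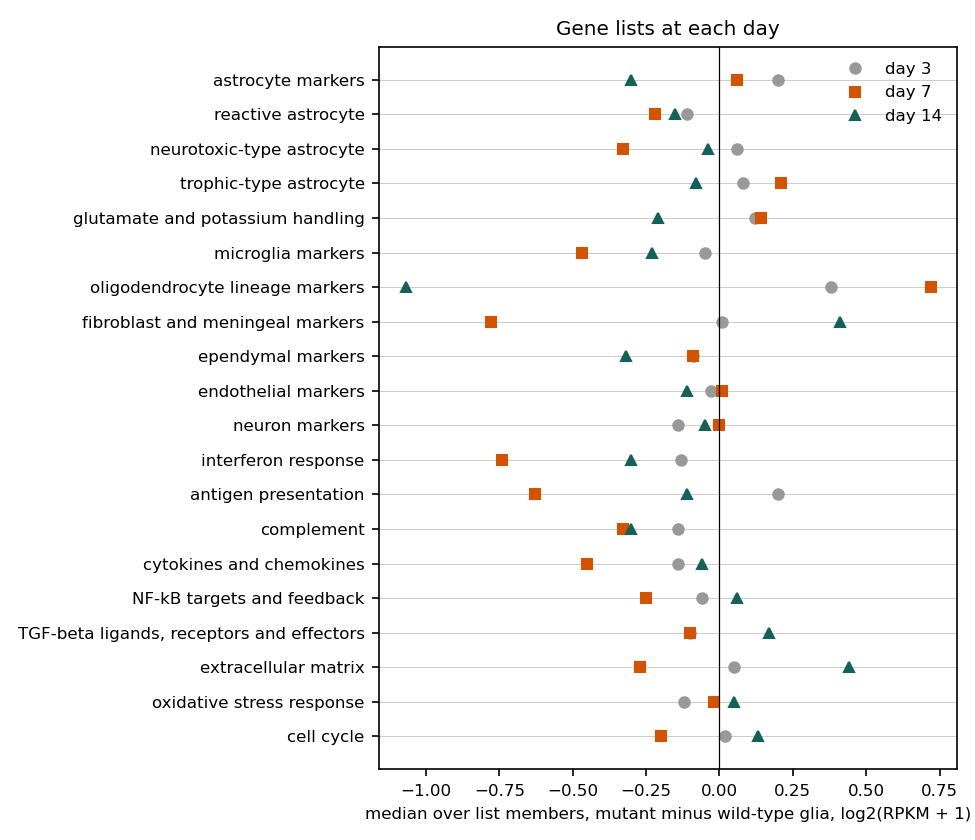
Median difference (mutant minus wild-type glia, log2 of RPKM + 1) of 20 fixed gene lists at day 3, day 7 and day 14, 1 marker a day. The oligodendrocyte lineage lies right of 0 at days 3 and 7 and left of it at day 14, and the interferon, fibroblast and antigen presentation lists lie left of 0 at day 7.

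Of 20 extracellular matrix genes, 1 was called at day 7 and 0 at day 14, against 0.931% and 0.035% of all tested genes. Of these 20, 16 were negative at day 7 (median -0.27, with Lama1 called) and 19 positive at day 14 (median 0.44, with 0 called). Col1a2, a chain of type I collagen, had 55.2 and 52.9 RPKM in mutant and 77.4 and 97.5 RPKM in wild-type glia at day 7, and 119 and 151 RPKM in mutant and 155 and 13.5 RPKM in wild-type glia at day 14. At day 14 the second wild-type library was again far below the 3 others. The summed level of the list at day 14 was 3459.7 RPKM in mutant and 4017.1 RPKM in wild-type glia in the first pair, and 4655.4 RPKM in mutant and 2267.3 RPKM in wild-type glia in the second, and its median was -0.06 without the second mutant library. Antigen presentation genes had a median of 0.2 at day 3, -0.63 at day 7 and -0.11 at day 14, with 0 of 12 called, and complement genes had a median of -0.31 in the mean, with 0 of 11 called. C1qb, a chain of the first complement component made by microglia, was lower in all 6 pairs, with 636 and 362 RPKM in mutant and 883 and 571 RPKM in wild-type glia at day 7, and was not called (-0.37, adjusted p = 0.24).

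Other fixed lists held no called gene in the mean over days, among them heat shock proteins (0 of 14, median 0.01), the unfolded protein response (0 of 16, median 0.05), p53 targets (0 of 13, median -0.01), glutamate and potassium handling (0 of 11, median 0.02) and neurotoxic-type astrocyte genes (0 of 11, median -0.21).

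Beside mutant neurons, 24 genes were called in the mean over days (0.168%), 4 higher (0.028%) and 20 lower (0.14%), with Aoc3 at -1.64, Wnt4 at -0.80, Enpp2 at -1.27 and Cldn11 at -0.64. The genotype effect beside wild-type neurons differed from that beside mutant neurons in 0 genes, with 72 at an unadjusted p under 0.05 (0.504%). As the libraries beside the other neuron are alike, though unevenly (spread 1.67 to 10.1 times counting noise), these values are not a separate repeat. The model takes these libraries as independent, so its spread may be too large for the difference between partners. The 0 called genes therefore do not show that the genotype effect was the same beside both kinds of neuron.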

How the data were processed

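RNA sequencing values of 23 glial libraries were analysed. The deposited culture values are RPKM, which the authors made from reads for 27389 entries (127 without a value were left out); no header names the unit, which was read from the values. Bowtie and mm9 are named in the submitters' processing notes. Whole reads were recovered for 100% of 22784 entries above 0 with 1 factor a library and 1 step an entry. Both were sought from the values, within a tolerance for rounding. Entries were named by Entrez ID (18851), alias (546) or as deposited (7865). Gene positions on mm9 come from the spinal cord file and were matched by symbol. Values were rescaled by median-of-ratios factors, and limma 3.58.1 under R 4.3.3, with a trended empirical Bayes step, was run on log2(value + 1) for genes at 1 or more in at least 2 of 23 libraries (14279 genes). Each group of pairing and day had its own mean, replicate number within day was a block, and this left 8 residual degrees of freedom. The pairing by day and number was part of the design set before the model was run. Residuals of the same day and number correlated above 0.1 in 15 of 15 pairs (median 0.71, lowest 0.23). For mutant against wild-type glia beside wild-type neurons there were 3 such pairs (median 0.57, lowest 0.34). Across days 11 of 30 pairs were above 0.1 (median 0.06, highest 0.68). Between days 3 and 7 all correlations were 0.462 to 0.682, so replicate number was not fully separate between those days. Members and gene lists were chosen with earlier results of these data known. Genes were named by rule: for the mean, up to 15 a direction called and of 1 sign in all 6 pairs, for a day, 5 a direction, any list member, and Sod1. Some genes that the rule names are not reported here. The procedure was tested on simulated libraries drawn as independent, which cannot show how the likeness between real libraries affects its p-values. Alternatives are given at the end.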

Additional observations from a re-analysis of the deposited data

Results flagged for a closer look

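The genotype effect on Cldn11 differed between day 14 and day 3 by -2.54 (mutant minus wild-type glia, log2 of RPKM + 1), by the test across 14279 genes. The following were not tested. They are listed because mutant glia were higher in both pairs of 1 day and lower in both pairs of the other. The 29 genes named by rule were searched. Those named for the mean over days had to have the same sign in every pair, so they could not show this pattern. The share of all tested genes with this pattern was not computed, so how unusual it is was not tested. The mean pair difference of Angptl7 was lower at day 7 than at day 3 by -3.15, and that of Cldn11 by -1.11. The mean pair difference of Cldn11 at day 14 was lower than at day 3 by -2.54. Gpc1 differed by -0.38 between day 7 and day 3, and by -1.09 between day 14 and day 3.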

How the results depend on the processing

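The recomputed differences of single genes kept their sign. List medians did not all: that of the interferon genes at day 3 was 0.05 without the mutant day 3 replicate 1, and those of the fibroblast and matrix lists at day 14 were -0.24 and -0.06 without the mutant day 14 replicate 2. The mean over days gave 36 calls, and the totals were 4 with no replicate block (4 of them among the 36), 22 with values as deposited (19 among the 36), 1 with both, 23 with no filter on low values (17 among the 36), 0 with the 12 libraries alone, 8 without the day 3 replicate 1 libraries (5 among the 36) and 1 leaving out day 7 (chosen after seeing the data). Day 3 gave 0, and 1 with no filter and 2 without day 3 replicate 1. Day 7 gave 133, and 20 with no replicate block, 1 with no block and deposited values, 6 with the 12 libraries and 254 with voom on recovered reads. Day 14 gave 5, and 2 with no replicate block, 0 with that and deposited values, 1 with the 12 libraries and 2 with voom. Day 14 minus day 3 gave 1, and 0 with no replicate block, 0 with that and deposited values, 3 with quantile normalization, 0 with the 12 libraries and 2 without day 3 replicate 1. Beside mutant neurons the count was 24, and 2 with no replicate block, 11 with deposited values, 2 with both, 14 with quantile normalization, 10 without day 3 replicate 1 and 3 leaving out day 7. The partner difference gave 0, and 3 with no filter. Leaving out 1 library at a time gave 5 (without the mutant day 7 replicate 2) to 136 (without the wild-type day 3 replicate 2) in the mean, 0 to 264 at day 3, 26 to 167 at day 7, 2 to 7 at day 14, 1 to 116 for day 14 minus day 3, 2 to 11 beside mutant neurons and 0 for the partner difference; the cause was not tested. The lone wild-type day 3 library beside mutant neurons could not be left out. Depth limits calls on low genes, most in day 14 replicate 1.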
